A study of Homo sapiens with 46 samples.

Results

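The genes described here are those with exactly 2 measured isoforms in a cell type, 1 of them a transcript of the reference annotation (the listed isoform) and 1 assembled from the study's own reads with no reference transcript identifier (the new isoform). They were found by counting rows: a gene was a member in a cell type if its table held 2 rows for the gene, 1 with a transcript identifier and 1 without. There were 1252 members among 15125 genes in human pluripotent stem cells (hPSC), 1362 of 17728 in ectoderm, 1072 of 13656 in endoderm and 1309 of 15018 in mesoderm. In all, 3896 of 21183 genes (18.4%) were members in at least 1 table, 2995 of them in 1 table only and 23 in all 4. The quantity followed throughout is the new-isoform share, the new isoform's percentage of the gene's counts in a library. The major isoform is the one with more counts, which need not be the one with more molecules.

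A gene can give several mature RNAs by starting, splicing or ending its transcript differently, and the resulting isoforms can differ in coding sequence, in stability and in where in the cell they are found. Transcripts that keep an intron are often held in the nucleus or on chromatin until they are spliced or degraded, while fully spliced messenger RNA is exported to the cytoplasm for translation. An assembler reports such unprocessed or alternative RNAs as new isoforms when they match no annotated transcript.

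The study fractionated H1 cells, an established human embryonic stem cell line, and 3 germ-layer cultures made from them. hPSC were kept on Matrigel in mTeSR1 medium. Ectoderm was made with A83-01, PNU-74654 and dorsomorphin, endoderm with WNT3A and activin A, and mesoderm with VEGF, BMP4, bFGF and, on the first day only, activin A; these cultures are models from 1 line, not embryonic tissue. From each cell type came libraries of cytoplasm, nucleus, nucleoplasm and chromatin, 46 in all in 16 groups, with 3 libraries a group except mesoderm nucleoplasm, which had 1. All were short-read libraries of total RNA, the extraction buffers of every group held alpha-amanitin, and the division of reads between 2 isoforms of a gene is an estimate. Nothing says that the libraries of a group came from separate cultures, so the tests measure the spread between these libraries, which may be technical. Library totals ran from 4990408 to 21298678 counts, and the members held 4.38% to 9.60% of them.

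The control genes went partly against the fraction labels. Mitochondrial genes, whose RNA lies outside the nucleus, took 0.399% to 0.615% of the counts in the hPSC libraries labelled cytoplasm and 13.1% to 15.3% in those labelled nucleus, and ectoderm (0.936% to 1.58% against 8.15% to 10.2%) and endoderm had the same order. In mesoderm the order was the other one, at 5.84% to 7.46% in cytoplasm and 1.11% to 1.36% in nucleus. The nuclear RNAs MALAT1 and NEAT1 together were higher in the cytoplasm libraries than in the nucleus libraries of hPSC and ectoderm and lower in those of mesoderm. The fibroblast markers COL1A1, COL3A1 and DCN summed to 62.3 to 94.3 CPM (counts scaled to the library total) in hPSC cytoplasm, where 1 of the 3 was above 1 CPM. They summed to 834 to 1136 in hPSC nucleus, and to 224 to 291 against 2581 to 3047 in mesoderm. The trophoblast markers GATA3, KRT7 and CGA summed to 147 to 158 CPM in mesoderm cytoplasm, with all 3 above 1 CPM. In endoderm cytoplasm they summed to 122 to 154, with 1 of the 3 above 1 CPM. Their sums were 24.1 to 31.2 in hPSC cytoplasm and 5.05 to 7.15 in ectoderm cytoplasm. Blood and endothelium markers stayed at or under 4.82 CPM in all groups. All 6 pluripotency markers were above 1 CPM in hPSC, all 6 endoderm markers in endoderm, 4 of 6 ectoderm markers in ectoderm and 3 of 7 mesoderm markers in mesoderm. Markers did not separate the cell types fully: 3 of 7 mesoderm markers passed 1 CPM in hPSC and ectoderm too and 6 of 7 in endoderm. Pluripotency markers still summed to 4722 CPM in endoderm and 2559 CPM in mesoderm cytoplasm (6289 in hPSC). In cytoplasm the ectoderm and mesoderm marker sums were each highest in their own cell type. In nucleus, ectoderm markers averaged 1383 CPM in mesoderm and 1258 in ectoderm, with overlapping libraries. Mesoderm markers there averaged 254 CPM in mesoderm, below 431 in hPSC and 324 in endoderm. The part of these differences in the results below was not tested, so cytoplasm and nucleus mean the libraries taken as such. The nucleus columns carry an abbreviation, Nei, that the labels do not spell out; they were read as nucleus because the other abbreviations stand for the other 3 fractions, and each result on nucleus rests on that reading. In such bulk libraries, fewer cells of a type and less RNA per cell cannot be told apart.

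No sequence of a new isoform was used here, but the listed isoforms of the 5 genes called in 3 cell types are known. Their first 60 coding bases are printed to identify the listed isoforms of these genes, 5′ to 3′ with the start codon in capitals, from GENCODE release 29 on hg38. All 5 genes lie on the plus strand.
PDCD5, chr19:32581068-32587452, 6 exons, transcript of 699 bases: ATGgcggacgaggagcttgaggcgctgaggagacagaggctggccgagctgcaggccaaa
TCEA2, chr20:64049836-64072347, 10 exons, 1235 bases: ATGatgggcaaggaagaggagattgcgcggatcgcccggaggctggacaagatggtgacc
CCDC174, chr3:14651746-14672659, 11 exons, 2942 bases: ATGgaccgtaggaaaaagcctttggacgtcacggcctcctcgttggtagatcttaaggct
SPINDOC, chr11:63813388-63827718, 6 exons, 2024 bases: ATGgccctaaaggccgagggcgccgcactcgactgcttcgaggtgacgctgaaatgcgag
MRPS26, chr20:3045945-3048254, 4 exons, 1127 bases: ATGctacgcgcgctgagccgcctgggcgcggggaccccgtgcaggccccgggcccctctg

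Most members were protein-coding genes, 92.7% of them for hPSC and 88.6%, 93.8% and 93.0% for ectoderm, endoderm and mesoderm, and long noncoding RNA genes numbered 58, 100, 44 and 61. Listed isoforms had a median of 9 exons (8 in ectoderm). The new isoform was assigned to another assembled locus than the listed one in 234, 371, 197 and 219 members, and such new rows took little of the gene: in hPSC nucleus the median share was 1.77% for them against 16.1% for pairs on 1 locus. The relative length of the 2 isoforms, taken from the ratio of counts to TPM within a library, could be measured in 772, 679, 694 and 849 members. Being a ratio of effective lengths, it can differ from that of full lengths. Its median lay close to equal length, at 0.999, 1.04, 0.997 and 1.03. The new isoform was at least 1.5 times longer in 139, 202, 144 and 222 members and at least 1.5 times shorter in 107, 75, 100 and 101.

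The new isoform was the minor one in most members, and its median share was highest in chromatin in every cell type. Among the members with at least 10 gene counts in every library, which were 1183 for hPSC and 1157, 995 and 1211 for ectoderm, endoderm and mesoderm, the median share in hPSC was 7.71%, 10.3% and 10.3% in the cytoplasm libraries and 12.0%, 12.3% and 12.3% in nucleus. Endoderm gave 6.15%, 5.86% and 7.09% in cytoplasm and 8.82%, 12.2% and 11.1% in nucleus, and mesoderm 9.24%, 8.96% and 8.45% against 13.8%, 12.1% and 15.4%. In each of these 3 cell types every cytoplasm library lay below every nucleus library. With counts pooled over the members, which weights genes by their counts, the difference between cytoplasm and nucleus was −0.39 percentage points in hPSC and −0.75 in mesoderm, and it turned direction in endoderm (0.63). Ectoderm had the opposite order, with 10.3%, 10.8% and 10.5% in cytoplasm above 8.89%, 6.46% and 9.61% in nucleus. Because the share is one of counts, a long isoform, which collects more reads per molecule, weighs more than a short one.

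Chromatin lay above nucleoplasm in all 3 cell types where both were replicated. The median share was 13.6% ± 0.576 (SD, n = 3) against 12.0% ± 1.18 in hPSC, 19.3% ± 1.16 against 13.1% ± 0.953 in ectoderm and 15.8% ± 1.30 against 9.78% ± 0.559 in endoderm, with no overlap between libraries. In mesoderm, chromatin was at 17.9% ± 1.52 and the single nucleoplasm library at 6.61%. The difference between chromatin and nucleoplasm was smallest in hPSC, at 1.67 percentage points, and was 6.18 in ectoderm and 6.0 in endoderm. The new isoform held over 50% of the gene's counts in 23.5% ± 0.804 of endoderm members in chromatin and in 13.9% ± 0.812 in cytoplasm. These medians describe the libraries and carry no test. Members with no count of the new isoform were most frequent, at 27.0%, in hPSC cytoplasm replicate 1, a library of 8329295 counts. The other hPSC cytoplasm libraries had 14962624 and 15073269 counts. Ectoderm nucleus replicate 2 (24.5%, 21298678 counts), endoderm nucleus replicate 1 (24.3%) and mesoderm nucleoplasm (24.2%) came close.

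**Figure D1:**
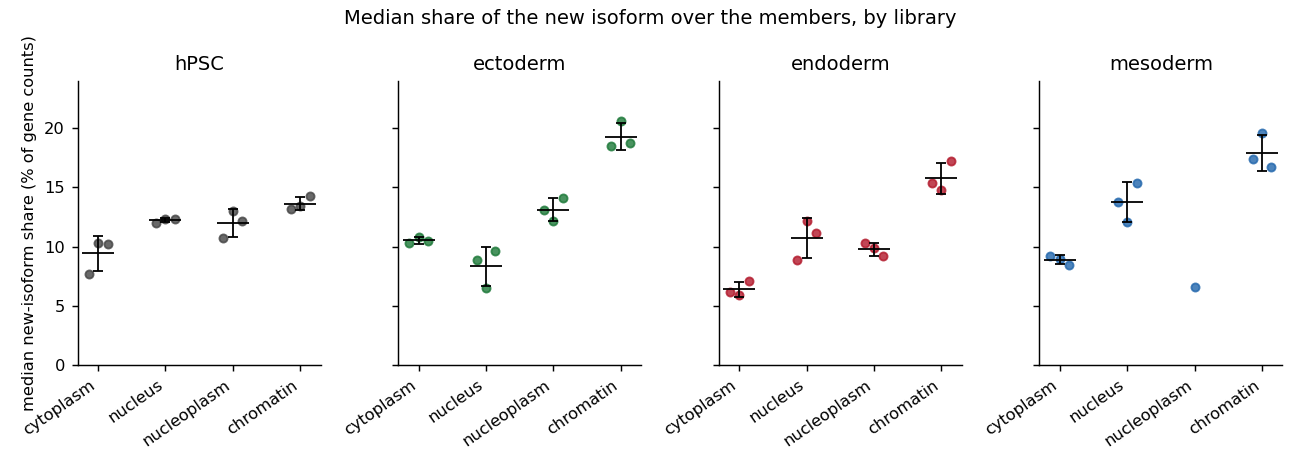
Median new-isoform share over the members (percent of gene counts, vertical axis) in each library (points), by fraction, with the mean and SD of each group of 3 in black. Chromatin is highest in all 4 panels, and ectoderm is the cell type in which cytoplasm lies above nucleus.

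Between cytoplasm and nucleus, the share changed in 146 of 1214 members tested in hPSC, where it was lower in cytoplasm in 123 and higher in 23. A share was called changed at a Benjamini-Hochberg adjusted p under 0.05 in edgeR's quasi-likelihood test of the division of a gene's counts between isoforms, adjusted over the whole table. Called members made up 12.0% in hPSC, where 9.3% of all rows tested were called, 5.74% lower and 3.56% higher. In endoderm 155 of 1031 (15.0%) were called, 134 lower and 21 higher, against a background of 10.0% (6.74% lower, 3.26% higher). In mesoderm 127 of 1274 (9.97%) were called, 123 lower and 4 higher, against 6.45% (4.66% lower, 1.79% higher). In ectoderm 0 of 1251 were called against a background of 0.0671% (0.0199% lower, 0.0472% higher), with 113 at an unadjusted p under 0.05, and other tools called 53 (DESeq2), 53 (voom) or 31 (diffSpliceDGE).

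The called changes were large. The median absolute change among called members was 18.6 percentage points for hPSC, 17.1 for endoderm and 17.7 for mesoderm, and the major isoform differed between the fractions in 26, 26 and 18 of them. Leaving out 1 library at a time left 72 to 123 calls in hPSC (72 without nucleus replicate 2, 82 without nucleus replicate 3), 89 to 153 in endoderm (89, 97 and 98 without nucleus replicate 3, cytoplasm replicate 1 and nucleus replicate 2) and 0 in mesoderm in 5 of 6 fits, with 115 without nucleus replicate 2. TPM divide each isoform's counts by its length. In limma's diffSplice on log2 of TPM plus 1, the split was 169 higher and 186 lower in hPSC. It was 156 and 174 in mesoderm and 85 and 278 in endoderm. That setting also differs from the main test in its model and added constant, so the split does not show the effect of isoform length. Median shares of TPM were lower in cytoplasm than in nucleus. They were 8.69% against 11.7% in hPSC, 5.71% against 10.2% in endoderm and 7.55% against 12.5% in mesoderm.

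**Figure D2:**
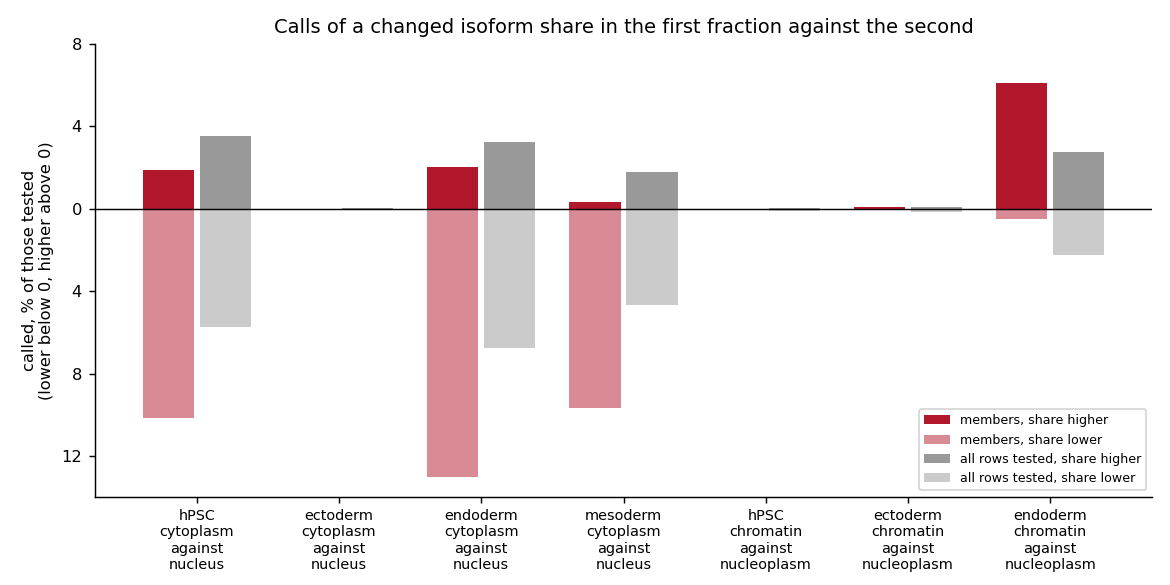
Members (red) and all rows tested (grey) with a called change of isoform share, as percent of those tested, in each of 7 comparisons; bars above 0 are shares higher in the first fraction, bars below 0 lower. Members reach 10.1% lower in hPSC, 13.0% in endoderm and 9.65% in mesoderm cytoplasm, and 6.11% higher in endoderm chromatin.

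Of 860 genes tested between cytoplasm and nucleus in at least 2 cell types, 32 (3.72%) were called in at least 2, 28 of them lower in cytoplasm each time and 4 higher each time. Of 9797 listed isoforms of genes with more than 2 rows, tested in at least 2 cell types, 2.55% were called in at least 2, and the difference was not tested. Mesoderm is among the calls of 19 of the 32, and 18 were called in at least 2 of the other cell types. Members of different tables are matched by gene only, while the 9797 were matched by transcript. GSK3A, DUS1L and AHNAK, for example, had different listed isoforms in hPSC and endoderm. Of 901 genes that were members in at least 2 tables, 842 had the same listed isoform in each. The new isoforms of 2 tables are not shown to be the same RNA. PDCD5, TCEA2, CCDC174, SPINDOC and MRPS26, whose listed reading frames are shown above, were called in hPSC, endoderm and mesoderm, always lower in cytoplasm; they are named after their values were seen, and no member kept its mesoderm call in 5 of the 6 fits that left out 1 library.

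PDCD5, a small protein named for its part in programmed cell death, had the widest differences of the 5. In hPSC its new-isoform share was 7.71%, 14.1% and 17.7% in cytoplasm and 49.8%, 63.1% and 64.6% in nucleus (adjusted p = 0.00274). In endoderm it was 9.67%, 11.1% and 11.7% against 66.9%, 78.1% and 75.3% (adjusted p = 0.000616), and 85.0%, 90.7% and 93.2% in chromatin. The fractions did not overlap in either cell type. In mesoderm it was 34.1%, 20.9% and 22.2% against 87.1%, 85.4% and 85.0% (adjusted p = 0.0228). By counts, the listed isoform was the major one in cytoplasm and the new one in nucleus in every mesoderm library. In endoderm cytoplasm the new isoform had 3.89 ± 0.343 CPM against 19.7 ± 10.4 in nucleus (n = 3 each), and the listed isoform 32.2 ± 3.40 against 6.47 ± 2.13. At this scaling to library totals both moved, in opposite directions. The ratio of effective lengths, new over listed, was 17.4 to 17.7, which is not a ratio of full lengths. More counts of the new isoform need therefore not mean more molecules.

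TCEA2, a transcription elongation factor of the TFIIS family, followed with 8.98%, 2.25% and 5.31% in hPSC cytoplasm against 30.1%, 39.8% and 28.9% in nucleus (adjusted p = 0.00651). In endoderm it was 1.66%, 3.50% and 2.34% against 29.8%, 34.2% and 32.2% (adjusted p = 0.000905), and in mesoderm 4.44%, 7.23% and 6.30% against 50.7%, 54.4% and 49.8% (adjusted p = 0.0168). In all 3 the cytoplasm libraries lay under 10% and the nucleus libraries far above. Its listed isoform stayed above the new one in endoderm in every cytoplasm and nucleus library, and the 2 were near equal in chromatin, where the share was 49.8%, 47.6% and 50.8%.

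CCDC174, a protein reported with the exon junction complex, had endoderm shares of 4.99%, 4.40% and 0.880% in cytoplasm and 15.0%, 38.0% and 37.5% in nucleus (adjusted p = 0.0277). Its endoderm chromatin libraries were at 74.5%, 76.5% and 74.8%, far above its nucleoplasm at 26.9%, 34.2% and 9.32%. The chromatin libraries are the ones in which the new isoform was the major one. In hPSC the shares were 6.11%, 1.26% and 1.10% against 18.3%, 25.9% and 25.3% (adjusted p = 0.0168) and in mesoderm 9.40%, 9.07% and 5.13% against 43.6%, 33.5% and 37.2% (adjusted p = 0.0336).

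SPINDOC, which binds the histone reader SPIN1, was the most abundant of the 5 in counts. Its share in hPSC was 2.26%, 4.03% and 4.15% in cytoplasm against 13.6%, 17.4% and 18.1% in nucleus (adjusted p = 0.00474), in endoderm 2.47%, 4.46% and 3.95% against 26.5%, 26.4% and 33.9% (adjusted p = 0.000818) and in mesoderm 4.62%, 3.33% and 1.98% against 20.1%, 16.5% and 15.1% (adjusted p = 0.0286). The new isoform stayed the minor one everywhere, also in endoderm chromatin at 40.8% to 48.0%. MRPS26, a protein of the small subunit of the mitochondrial ribosome, is the only one of the 5 that was a member in all 4 tables. In hPSC it had 6.18%, 5.06% and 4.96% in cytoplasm against 17.4%, 27.4% and 16.2% in nucleus (adjusted p = 0.00478), and it was called in the same direction in endoderm (5.86% ± 0.855 against 30.6% ± 15.0) and mesoderm (8.16% ± 2.55 against 28.7% ± 2.75). In ectoderm its nucleus libraries, at 4.86%, 2.90% and 7.10%, lay below its cytoplasm libraries, at 7.29%, 8.75% and 8.21%, and the test did not call it (adjusted p = 0.597).

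Among members with the largest changes in hPSC, MAT2A, the enzyme that makes S-adenosylmethionine and whose transcript is known for a regulated retained intron, had shares of 34.3%, 25.2% and 25.1% in cytoplasm and 76.2%, 76.6% and 74.7% in nucleus (log2 odds change −3.01, SE 0.24, adjusted p = 0.000912). Its new isoform fell from 333 ± 54.1 CPM in nucleus to 99.8 ± 27.4 in cytoplasm and its listed isoform rose from 106 ± 15.3 to 251 ± 19.9 (n = 3 each). AUH, a mitochondrial enzyme of leucine breakdown, had 26.3%, 15.5% and 21.4% against 73.1%, 82.6% and 69.5% (adjusted p = 0.00254). Both genes thus had a different major isoform in the 2 fractions, as did SS18L2 (12.4% ± 5.20 against 63.8% ± 12.4, adjusted p = 0.00344). MAT2A overlaps GGCX and SS18L2 overlaps SEC22C on the other strand, and the strand of the counting is not given in the sources used here.

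Fewer hPSC genes rose in cytoplasm. PLPP1, a phospholipid phosphatase, had 50.2%, 38.3% and 49.4% in cytoplasm against 7.55%, 9.36% and 7.89% in nucleus (log2 odds change 3.24, SE 0.39, adjusted p = 0.00203). COLGALT1, a collagen galactosyltransferase, had 51.5%, 29.4% and 41.5% against 12.0%, 12.5% and 5.59% (adjusted p = 0.0153), with its listed isoform at 18.6 ± 5.86 CPM in cytoplasm and 172 ± 23.0 in nucleus and its new isoform not called on its own (adjusted p = 0.196). In COLGALT1 the listed isoform was thus lower in cytoplasm at this scaling to library totals, while a change of the new one was not shown. SSX2IP, a centrosomal and cell-junction protein, had 9.94%, 38.6% and 31.7% in cytoplasm and 0 new-isoform counts among 505 gene counts in nucleus, which allows a share of up to 0.594% there by counting error (adjusted p = 0.00599).

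In endoderm, DUS1L, a dihydrouridine synthase-like protein, had shares of 12.0%, 17.9% and 16.9% in cytoplasm and 69.8%, 75.2% and 74.4% in nucleus (log2 odds change −3.90, SE 0.35, adjusted p = 0.000392). Its new isoform fell to 6.31 ± 1.59 CPM from 87.9 ± 33.8 in nucleus, while the listed isoform was at 33.9 ± 3.08 and 31.3 ± 8.50. At this scaling to library totals the difference lay in the new isoform, and such a reading of levels depends on the scaling. MITD1, an ESCRT partner in cell division, had 10.9%, 10.4% and 5.10% against 53.7%, 69.1% and 81.7% (adjusted p = 0.00143). Its nucleus libraries spread over a wide range.

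Of the 21 endoderm members that rose in cytoplasm, the 3 described here had new isoforms shorter than the listed ones, while 3 others had new isoforms at least 1.5 times longer. EVL, an actin regulator of the Ena/VASP family, had 89.4%, 90.6% and 91.0% against 57.6%, 44.2% and 38.8% (adjusted p = 0.00102, length ratio 0.305). TAF1D, a subunit of the RNA polymerase I promoter factor, had 59.8%, 59.1% and 65.9% against 26.0%, 27.3% and 21.6% (adjusted p = 0.00218, length ratio 0.441). CCNK, the cyclin partner of CDK12 and CDK13, had 55.8%, 61.1% and 56.0% against 17.2%, 22.8% and 28.4% (adjusted p = 0.00849, length ratio 0.754), and its new isoform rose to 59.0 ± 2.00 CPM from 7.10 ± 1.72 in nucleus. These genes, like the others named for the largest changes, were chosen among members whose libraries did not overlap.

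In mesoderm the largest falls in cytoplasm had much longer new isoforms. UXT, a prefoldin-like chaperone, had 19.2%, 14.0% and 13.7% in cytoplasm and 85.9%, 82.5% and 75.7% in nucleus (adjusted p = 0.0168, length ratio 20.0). It overlaps UXT-AS1 on the other strand. POLR2J, a subunit of RNA polymerase II, had 9.67%, 7.53% and 10.0% against 56.5%, 60.0% and 65.3% (adjusted p = 0.0256, length ratio 4.71). COX11, a copper chaperone for cytochrome c oxidase, rose, with 89.1%, 92.6% and 93.8% against 63.0%, 62.2% and 67.4% (adjusted p = 0.0278). So did SLC30A5, a zinc transporter (35.6% ± 6.08 against 8.91% ± 2.61, adjusted p = 0.0338), and PRPF4B, a kinase of splicing factors (22.1% ± 1.12 against 6.98% ± 0.962, adjusted p = 0.0369). Each of these 5 genes, and PDCD5 in mesoderm, was called in at most 1 of the 6 fits that left out 1 library.

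The relative length of the new isoform went with the direction of the difference. In hPSC, 58 of 139 members with a new isoform at least 1.5 times longer fell in cytoplasm and 0 rose, with a median difference of −14.5 percentage points. In endoderm 60 of 144 fell and 3 rose (median −9.47), and in mesoderm 68 of 222 fell and 1 rose (median −13.5). Members within 1.5 times of equal length had smaller median differences than these. In hPSC 40 of 526 fell and 8 rose (−1.31). In endoderm 56 of 450 fell and 9 rose (−2.73), and in mesoderm 30 of 526 and 2 (−2.08). The medians over all members tested were −0.78, −1.63 and −2.41, so this class lay further from 0 in hPSC and endoderm. In endoderm 14.4% of the class were called, against 15.0% of all members tested. Of members with a new isoform at least 1.5 times shorter, 5 of 107 fell and 8 rose in hPSC (median 2.76), 7 of 100 and 5 in endoderm (−0.65) and 3 of 101 and 1 in mesoderm (0.04). Ectoderm had 0 calls in every length class and a median of 1.23 points over its 202 longer ones.

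Longer new isoforms had their highest median share in chromatin in every cell type. Their median share in hPSC was 16.2% ± 1.93 in cytoplasm, 38.8% ± 2.62 in nucleus and 43.5% in chromatin, and in endoderm 11.3%, 32.8% and 52.9%. In ectoderm it was 20.6% in cytoplasm, 18.0% ± 5.11 in nucleus and 47.5% in chromatin, so that nucleus did not lie above cytoplasm. Mesoderm had 10.8%, 31.0% and 41.0%, and 10.3% in its single nucleoplasm library. Nucleoplasm was at 33.2% in hPSC, 32.6% in ectoderm and 37.0% in endoderm. Depth entered the length measure, which needs 20 counts and 1 TPM in a library, and 442 of the hPSC members tested had none; 20 of these fell and 7 rose.

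**Figure D3:**
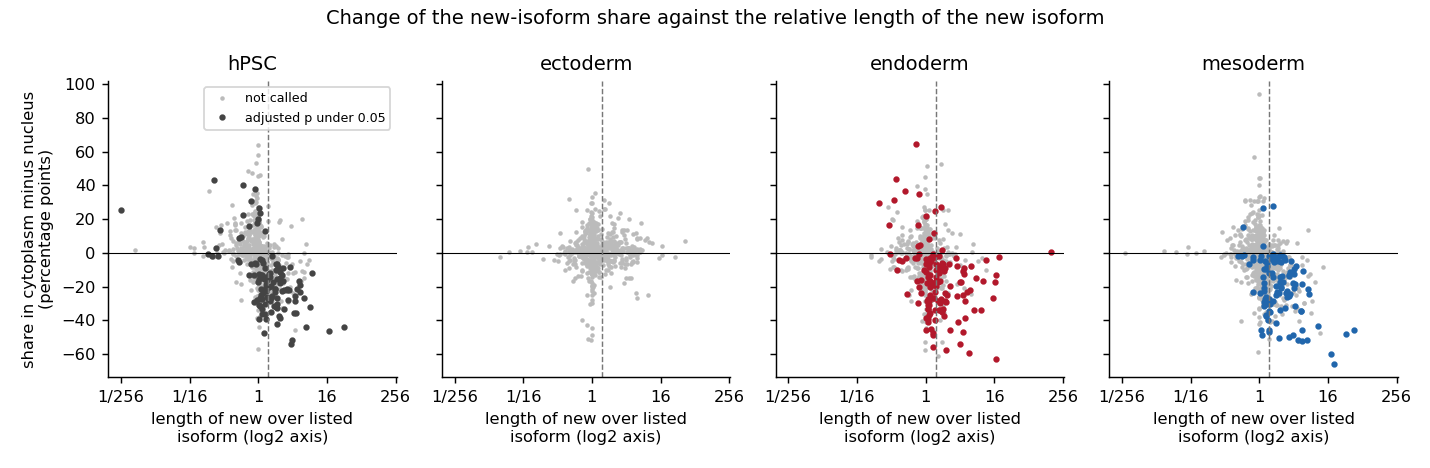
Difference of the new-isoform share between cytoplasm and nucleus (percentage points, vertical axis) against the length of the new over the listed isoform (log2 axis), 1 point per member with a measured ratio; coloured points have an adjusted p under 0.05 and the dashed line marks a ratio of 1.5. Right of that line 58 members are called lower in hPSC, 60 in endoderm and 68 in mesoderm, against 0, 3 and 1 called higher.

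The levels of the 2 isoforms were tested with TMM scaling, and which one moved depends on that scaling. In hPSC, with a background of 39.6% of all transcripts called between cytoplasm and nucleus (20.1% lower, 19.5% higher), new isoforms were called lower in cytoplasm in 231 and higher in 75 of 1015, and listed isoforms higher in 322 and lower in 273 of 1215. Endoderm (background 42.1%, of which 22.8% lower and 19.4% higher) had 240 lower and 71 higher of 862 new isoforms, and 345 higher and 227 lower of 1038 listed ones. Mesoderm (background 32.0%, of which 16.8% lower and 15.2% higher) had 255 lower and 66 higher of 1220 new isoforms, and 403 higher and 169 lower of 1284 listed ones. Ectoderm (background 13.6%, of which 7.02% higher and 6.61% lower) had the opposite order for both, with 44 higher and 31 lower of 996 new isoforms and 172 higher and 200 lower of 1262 listed ones. Scaling by total counts turned some splits over: member isoforms were 216 higher and 231 lower in ectoderm by TMM and 313 and 116 by total counts, 416 and 467 against 577 and 342 in endoderm, and 469 and 424 against 293 and 566 in mesoderm.

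Where the share was called and both isoforms were tested, the new isoform fell while the listed one rose in 43 of 141 hPSC pairs, 49 of 149 endoderm pairs and 59 of 126 mesoderm pairs. The new isoform alone was called lower in 50, 38 and 27 pairs, and the listed one alone higher in 17, 23 and 33. Both isoforms fell in 11 hPSC, 24 endoderm and 3 mesoderm pairs.

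**Figure D4:**
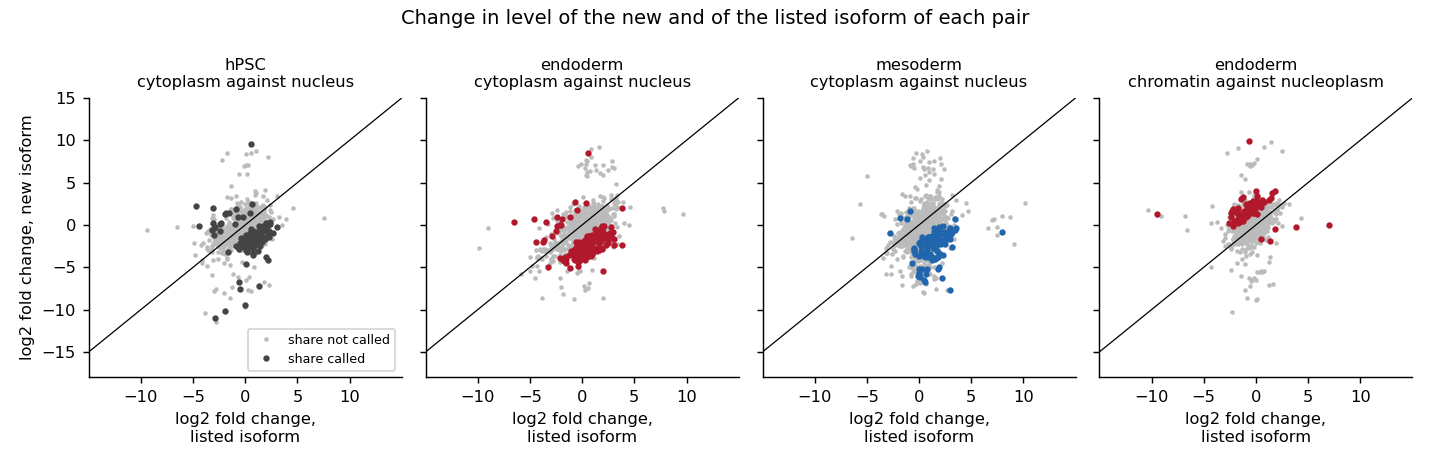
log2 fold change of the new isoform (vertical axis) against that of the listed isoform (horizontal axis) for each pair with both isoforms tested, in 4 comparisons; coloured points have a called change of share and the line marks equal change. Called pairs lie mostly below the line in the 3 cytoplasm panels and mostly above it in endoderm chromatin.

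Between chromatin and nucleoplasm, endoderm was the cell type with more than 1 call. There 68 of 1031 members (6.60%) changed share, 63 higher and 5 lower in chromatin, against a background of 4.99% (2.76% higher, 2.23% lower), and leaving out 1 library left 27 to 48 calls (27, 30, 35, 39 and 42 in the 5 fits other than that without chromatin replicate 2). hPSC had 0 of 1214 called (background 0.15%, of which 0.0824% lower and 0.0679% higher), with 126 at an unadjusted p under 0.05, 95 of them higher, and 69 calls by DESeq2, 56 by voom and 33 by diffSpliceDGE. Ectoderm had 1 of 1251 (background 0.236%, of which 0.147% lower and 0.0895% higher), with 229 at an unadjusted p under 0.05, 211 of them higher. In diffSplice on log2 of TPM plus 1 the endoderm split was 191 higher and 74 lower. The median absolute change among the endoderm calls was 27.4 percentage points, and 26 of them had a different major isoform in the 2 fractions.

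PEMT, which methylates phosphatidylethanolamine to phosphatidylcholine, had endoderm shares of 75.5%, 69.4% and 72.4% in chromatin and 15.9%, 11.3% and 17.0% in nucleoplasm (log2 odds change 3.94, SE 0.53, adjusted p = 0.0035). EIF3M, a subunit of a translation initiation factor, had 77.7%, 70.7% and 78.2% against 19.5%, 17.5% and 17.1% (adjusted p = 0.0108), and its listed isoform was at 20.4 ± 3.16 CPM in chromatin and 62.6 ± 1.88 in nucleoplasm. HMG20B, a subunit of the LSD1 and CoREST corepressor, had 71.5%, 71.1% and 72.5% against 30.7%, 23.4% and 24.0% (adjusted p = 0.00506), with the new isoform at 86.4 ± 10.8 CPM against 8.19 ± 1.68. PEMT's new isoform had a length ratio of 4.13 in endoderm, so a majority of its counts need not be one of molecules. In all 3 genes the listed isoform held most of the counts in nucleoplasm and the new one on chromatin. PCOLCE, an enhancer of procollagen processing, went the other way with 44.9%, 37.2% and 38.0% against 86.9%, 89.4% and 84.8% (adjusted p = 0.00613). So did SQSTM1, an autophagy receptor (9.24% ± 6.22 against 31.2% ± 5.69, adjusted p = 0.0454), and PCGF3-AS1, a noncoding RNA antisense to a Polycomb gene (82.6% ± 2.08 against 96.1% ± 0.504, adjusted p = 0.0234); the 2 were called in 1 and 0 of the 6 fits that left out 1 library. PCOLCE overlaps PCOLCE-AS1 and PCGF3-AS1 overlaps PCGF3 on opposite strands. NUFIP2, an RNA-binding protein, was the ectoderm call, at 0.573%, 0.427% and 1.04% in chromatin and 0.0276%, 0.105% and 0.0247% in nucleoplasm (adjusted p = 0.0468).

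Longer new isoforms had the larger differences here too. In endoderm 20 of 144 rose in chromatin and 3 fell (median 10.4 percentage points), and the medians for longer ones were 5.28 in hPSC and 10.8 in ectoderm. At the level of single isoforms, 125 of 862 new isoforms were called higher and 56 lower in endoderm chromatin (background 30.1% of all transcripts, 11.6% higher and 18.5% lower), and 287 of 1038 listed isoforms lower and 112 higher. Ectoderm (background 14.0%, of which 4.39% higher and 9.59% lower) had 61 higher and 23 lower new isoforms and 251 lower and 36 higher listed ones, and hPSC (background 9.67%, of which 6.18% higher and 3.49% lower) 66 higher and 11 lower new and 95 higher and 52 lower listed ones. These levels depended on the scaling: both isoforms together were 161 higher and 63 lower in hPSC by TMM and 343 and 19 by total counts, 97 and 274 against 192 and 75 in ectoderm, and 237 and 343 against 524 and 127 in endoderm.

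The 2 endoderm comparisons use different libraries but come from 1 fit, which shares its estimate of the spread. In both, 43 members were called, 27.7% of the 155 and 63.2% of the 68. Over all 19399 rows tested, 1941 and 968 were called, and how many of these were called in both was not counted. Of the 43 members, 40 were lower in cytoplasm than in nucleus and higher in chromatin than in nucleoplasm. They include TCEA2, with log2 odds changes of −4.25 and 2.38, HMG20B with −4.19 and 2.86, PEMT with −3.34 and 3.94, and SON, a large protein of nuclear speckles, with −1.38 and 2.08; these were picked from the 40 after their values were seen. USP7, a deubiquitinase, went the other way at 5.40 and −4.28, as did the multi-copy 5.8S ribosomal RNA, whose counts are uncertain because its copies are near identical, and RNF149 rose in both.

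Genes of the mitochondrial ribosome, which translates the few proteins encoded in mitochondrial DNA, made up one of the larger groups. Their share was lower in cytoplasm in 3 of 8 tested in hPSC, 5 of 12 in endoderm and 1 of 7 in mesoderm, with none higher, and in 0 of 8 in ectoderm. Of all rows tested, 5.74%, 6.74%, 4.66% and 0.0199% were lower in hPSC, endoderm, mesoderm and ectoderm. Their median difference was 0.53 percentage points in hPSC (−0.78 over all members), −10.1 in endoderm (−1.63), −20.5 in mesoderm (−2.41) and 1.24 in ectoderm (0.56). MRPL32 had 12.0% ± 1.61 in hPSC cytoplasm against 33.7% ± 6.33 in nucleus and 13.2% ± 1.60 against 41.9% ± 10.1 in endoderm. MRPS30 was the other way round in hPSC, 59.7% ± 3.55 against 38.0% ± 15.6, and was not called. In endoderm chromatin 1 of the 12 was called, higher, and their median difference from nucleoplasm was 15.7 points (2.55 over all members).

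Zinc finger genes named ZNF, mostly transcriptional repressors, were a large group, with 3 of 46 lower in hPSC cytoplasm, 4 of 55 in mesoderm, 6 of 33 in endoderm and 0 of 44 in ectoderm, and none higher. In hPSC and mesoderm these shares are close to the background of calls lower in cytoplasm (5.74% and 4.66%; 6.74% in endoderm). Of splicing factors and hnRNPs, which process pre-messenger RNA, 2 of 8 were lower in hPSC, 2 of 5 in endoderm and 1 of 6 in mesoderm, where PRPF4B was higher, and in endoderm chromatin 2 of 5 were higher. Genes named TMEM had 2 of 15 lower in hPSC, 4 of 14 lower and 1 higher in endoderm, and 2 of 14 higher in endoderm chromatin. Long noncoding RNAs had 3 of 29 lower in hPSC, 1 of 27 in endoderm and 1 of 38 in mesoderm. Kinesins and centromere proteins, which move and segregate chromosomes, had 1 of 6, 2 of 8 and 1 of 4 lower. Among solute carriers 1 rose and 1 fell of 23 in hPSC, 2 of 16 fell in endoderm, and 1 rose and 1 fell of 25 in mesoderm.

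Small groups had 1 or 2 calls, too few to set against the background shares given above. RAB and RAS-like GTPases, many of which direct vesicle traffic, fell in 1 of 5 in endoderm, 2 of 10 in mesoderm, 0 of 4 in hPSC and 0 of 9 in ectoderm. Calls lower in cytoplasm were also made for 1 of 6 DEAD and DEAH box helicases in hPSC, for the ribosomal protein gene RPL36A in endoderm (0.548% ± 0.208 against 4.65% ± 1.44), for the proteasome subunit PSMA3 in mesoderm (13.0% ± 1.82 against 47.3% ± 0.857) and for 1 of 5 respiratory chain and ATP synthase genes in mesoderm. Of translation factors, the stress kinase EIF2AK3 was higher in hPSC cytoplasm (12.0% ± 3.38 against 2.34% ± 0.868) and EIF3M lower in endoderm cytoplasm. Nonsense-mediated decay factors, which remove RNAs with early stop codons, numbered 1 in hPSC, 2 in endoderm, 2 in mesoderm and 0 in ectoderm, and none was called, and none of the few cell identity, control or other-cell-type genes among the members was called.

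The members of highest level in each table differed in how their shares behaved. COL18A1, a basement membrane collagen, had a share of 14.7% ± 5.45 in endoderm cytoplasm and 13.6% ± 0.432 in nucleus (adjusted p = 0.972), although its listed isoform fell from 10062 ± 2720 CPM in nucleus to 245 ± 54.9. The fibroblast markers, also matrix genes, were higher in nucleus than in cytoplasm in the same cells, and the part of this in the result was not tested. In hPSC, PHC1, a Polycomb protein, rose to 50.7% ± 6.54 in cytoplasm from 33.2% ± 4.60 in nucleus (adjusted p = 0.0268), and RPL7A, a ribosomal protein gene that hosts small nucleolar RNAs (44.4% ± 4.62 against 33.2% ± 8.27), and TRIM28, a corepressor (69.0% ± 6.77 against 63.9% ± 5.66), were not called (adjusted p = 0.516 and 0.776). PHC1 was called in 2 of the 6 fits that left out 1 library. AHNAK, a giant membrane-associated protein, spread widely in mesoderm (4.78% ± 8.28 against 31.5% ± 16.8, adjusted p = 0.148). The new isoforms of COL4A1 and PODXL lay on other assembled loci and were under 1% of the gene in endoderm and mesoderm, respectively, as was that of PXDN in ectoderm; of these COL4A1, a basement membrane collagen, was called (0.674% ± 0.571 in cytoplasm against 0.00564% ± 0.00545 in nucleus, adjusted p = 0.00532), on 37 against 9 new-isoform counts.

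Of the 23 genes that were members in all 4 tables, 22 had 1 listed isoform throughout, and 0 were called between cytoplasm and nucleus in all 4. DVL3, a relay of Wnt signals, was lower in cytoplasm by 11.9 points in hPSC (18.8% ± 0.246 against 30.8% ± 5.01), 5.09 in ectoderm, 24.3 in endoderm (12.3% ± 1.70 against 36.6% ± 4.13) and 17.2 in mesoderm, and passed the test in endoderm (adjusted p = 0.00619; 0.112, 0.731 and 0.0801 in hPSC, ectoderm and mesoderm). Its new isoform, about 0.485 times the length of the listed one in hPSC, is one of the shorter ones that were lower in cytoplasm. RNF40, a histone H2B ubiquitin ligase, had its new isoform as the major one in every group, with means from 64.1% in ectoderm nucleus to 87.4% in endoderm chromatin, and was called in none of the 4. NCLN, a membrane protein of the endoplasmic reticulum, ranged from 37.6% ± 8.59 in mesoderm cytoplasm to 59.6% ± 2.90 in ectoderm nucleoplasm, and LTA4H, an enzyme of leukotriene synthesis, had 33.1% ± 3.12 in endoderm cytoplasm and 13.3% ± 1.92 in hPSC cytoplasm. For both, the means of a cell type's fractions lay closer together than those of different cell types in some but not all pairs, and no test between cell types was made because the tables were built separately.

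Between cytoplasm and nucleus, genes of other row classes were called less often than members in hPSC, endoderm and mesoderm. In ectoderm no member was called in that comparison. These differences were not tested. Genes with 2 listed isoforms were called in 9.89% (hPSC), 7.63% (endoderm), 6.58% (mesoderm) and 0.244% (ectoderm) of cases. Genes with 2 new isoforms were called in 3.97%, 9.19%, 2.47% and 0%. New isoforms of genes with more than 2 rows had 208 higher and 606 lower of 9368 in hPSC (8.69% called). They had 130 and 779 of 9178 in endoderm (9.90%) and 54 and 816 of 12807 in mesoderm (6.79%). They too were called lower in cytoplasm more often than higher in these 3 cell types. Between chromatin and nucleoplasm the order of classes differed by cell type. In hPSC 0% of members and 0.18% of rows of genes with more than 2 rows were called. In ectoderm it was 0.0799% and 0.246%, with 0.183% for genes with 2 listed isoforms. In endoderm it was 6.60% and 4.86%, with 5.70% for genes with 2 listed isoforms.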

How the data were processed

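Counts and TPM per isoform were deposited by the authors, 1 table of each for each cell type; per the submitters' processing notes STAR, RSEM and hg38 were used, so the deposited counts may be rounded estimates. Library columns were matched to samples by name, with the abbreviation Nei read as nucleus because the other 3 abbreviations fit the other fractions, and the single mesoderm nucleoplasm column, whose number differs from its sample's, matched by group; 1 unmatched column in each ectoderm table was not used. Rows without an Ensembl gene held 4.07%, 2.88%, 2.64% and 3.57% of counts in hPSC, ectoderm, endoderm and mesoderm and were left out.

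Shares were tested with edgeR 4.0.16 (R 4.3.3) by a quasi-likelihood F test, two-sided, of the isoform-by-fraction term, on the counts of the isoform and of the rest of its gene in each library, with a term per library, all fractions of a cell type in 1 fit, gene sums passing filterByExpr (minimum count 10) and at least 10 counts on each side. Levels were tested by the same method on isoform counts with TMM scaling. Benjamini-Hochberg adjustment covered all rows of a table, with calls at 0.05. Not every member passed the filters: 1214 of 1252, 1251 of 1362, 1031 of 1072 and 1274 of 1309 were tested. Depth per library was 4990408 to 21298678 counts, and intervals for 0 counts (3 counts of the total) cover counting error only. Listed isoforms were matched to GENCODE release 29 without their version number. Length ratios set against GENCODE on pairs of listed isoforms named the same longer isoform in 77.2% to 79.2% of pairs. No replicate libraries were identical. The scripts were tested on simulated data.

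Genes were named by a rule: in each comparison up to 3 called members rising most and 3 falling most, with a gene sum of at least 10 CPM and no overlap between libraries; genes called in all 4 cell types; the 3 members of highest CPM per table; and up to 4 members of each gene list. SFRP1, 1 of the 3 of highest CPM in ectoderm, had too few new-isoform counts to test. Members and lists were chosen with earlier results of these data known. Alternatives were DESeq2 1.42.0, limma 3.58.1 (voom, diffSpliceDGE in edgeR, log2 of TPM plus 1), other filters and scalings, 2 fractions only, a replicate block and leaving out each library. Same-numbered libraries did not all correlate above 0.1 in any comparison, so the numbers were not taken as pairs.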

Additional observations from a re-analysis of the deposited data

Results flagged for a closer look

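In ectoderm the median new-isoform share was 2.19 percentage points higher in cytoplasm than in nucleus, with every cytoplasm library above every nucleus library, whereas in hPSC, endoderm and mesoderm it was lower by 2.81, 4.33 and 4.88 points with no overlap between libraries. The difference between the cell types was not tested. Mitochondrial genes were higher in nucleus in ectoderm as in hPSC and endoderm, and lower in mesoderm, and their part in this was not tested.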

How the results depend on the processing

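The number of members with a changed share depended on the test, on the fractions fitted and on single libraries. Between cytoplasm and nucleus, DESeq2 called 274, 53, 284 and 398 members for hPSC, ectoderm, endoderm and mesoderm, voom 249, 53, 268 and 432, and log2 TPM plus 1 355, 140 (48 higher, 92 lower), 363 and 330. diffSpliceDGE called 234 in hPSC, 31 in ectoderm and 362 in mesoderm. Fitting 2 fractions only left 22 in hPSC and 87 in endoderm, asking for 10 percentage points 102 in endoderm and 83 in mesoderm, and filtering by transcript gave 2 in ectoderm. Between chromatin and nucleoplasm, DESeq2 called 69 in hPSC, 163 in ectoderm and 215 in endoderm, diffSpliceDGE 33, 97 and 136, voom 56, 237 and 212, and log2 TPM plus 1 136 (54 higher, 82 lower), 268 and 265. The single ectoderm call there became 5 with a transcript filter and 0 with no filter, with 2 fractions only, with 10 points or with the block, and endoderm kept 30 calls with 2 fractions only. With the replicate number as a block, 110, 0, 110 and 0 members were called between cytoplasm and nucleus in hPSC, ectoderm, endoderm and mesoderm (mesoderm nucleoplasm, with no number, left out), and 0, 0 and 33 between chromatin and nucleoplasm in hPSC, ectoderm and endoderm. Not every library correlated best with its own number.

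Leaving out 1 library gave 72 to 123 calls in hPSC, 0 to 3 in ectoderm, 89 to 153 in endoderm and 0 to 115 in mesoderm for cytoplasm, and 0 to 1 in ectoderm and 27 to 48 in endoderm for chromatin. Member isoforms called on their own level ran from 251 to 500 in ectoderm and 560 to 766 in mesoderm cytoplasm, and from 62 to 187 in hPSC and 208 to 243 in ectoderm chromatin. Such levels gave 771 by DESeq2, 268 on TPM and 276 at 2-fold in ectoderm cytoplasm (447 in the report's fit), 362 by total counts, 416 by DESeq2, 842 on TPM and 121 at 2-fold in hPSC chromatin (224), and 708 by DESeq2, 929 on TPM and 164 at 2-fold in ectoderm chromatin (371). With counts pooled over members, the share difference was −0.39 points in hPSC, 0.63 in endoderm (reversed) and −0.75 in mesoderm cytoplasm, and 3.98 in hPSC and 10.9 in endoderm chromatin. Without the 5.8S ribosomal RNA, a choice made after seeing the data, it was −4.10 in endoderm cytoplasm and 8.76 in endoderm chromatin. The other causes were not tested. None of the 29 called changes of genes named for the largest change or the highest CPM turned direction under these settings; this was not checked for the other named genes. Depth limits genes with few new-isoform counts most.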
